A study of Homo sapiens with 18 samples.

Results

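The response of the human neuroblastoma line IMR-32 to withanone (WN) was examined in 6 arrays, 3 of cells given 1 µM withanone for 24 h and 3 of cells given the solvent DMSO for 24 h, chosen by their titles out of 18 arrays in the series. IMR-32 is an established line known to carry amplified MYCN, the transcription factor gene that marks high-risk neuroblastoma. For comparison there were 3 IMR-32 arrays of cells given 1 µM withaferin A (WA) for 24 h, and 6 arrays of SK-N-SH, a neuroblastoma line known to lack that amplification, given 1 µM withanone or DMSO for 24 h, 3 each. Cells of both lines grew in RPMI medium with fetal calf serum, no genetic change was made in any group, and per the series' design text the 3 arrays of a group were biological replicates. Each line stands for 1 tumour's cells in culture.

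Withanone and withaferin A belong to the withanolides, lactones with a steroid skeleton that Withania somnifera makes. Withaferin A carries an epoxide and an unsaturated ketone through which it is known to bind thiol groups of proteins, among them KEAP1, the sensor that holds the transcription factor NRF2 (gene NFE2L2) in check. Withanone has its epoxide and hydroxyl groups at other positions of the same skeleton. The series concerns ferroptosis, in which cells die as iron drives the oxidation of membrane lipids. The peroxidase GPX4 opposes it, and ACSL4, an enzyme that feeds polyunsaturated fatty acids into membrane lipids, favours it.

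The withanone arrays were dimmer than the DMSO arrays, and this brightness and the withanone group cannot be told apart. The highest signal of an array lay between 19100.5 and 20824.1 with withanone and between 33925.7 and 36398 with DMSO. Over probes detected on every array, the median signal was between 279.7 and 435.8 with withanone and between 447.0 and 567.5 with DMSO. Probes detected numbered 17102 to 19075 on withanone arrays and 17773 to 19353 on DMSO arrays, which overlap. Levels below are log2 intensities after background correction and quantile normalization, which removes any shift shared by all genes, so that each difference is relative to the other genes of the array. Differences are given as withanone minus DMSO ± the standard error of the fit (3 arrays per group), with Benjamini-Hochberg adjusted p from limma over 12975 genes and a threshold of 0.05.

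Markers of noradrenergic neuroblasts were present on both kinds of array. Of 28 adrenergic neuroblast markers with a probe, 22 were detected on all 6 arrays, among them PHOX2A, HAND2, GATA3, DBH, CHGA and STMN2. The summed linear level of all 28 lay between 45572.6 and 52488.1 with withanone and between 42208.3 and 48559.4 with DMSO. The adrenergic markers TFAP2B and SLC18A2 were detected on none. Of 12 epithelial markers 1 (MUC1) was detected on all 6 arrays and of 10 Schwann cell markers 1 (NGFR). Of 14 fibroblast and endothelial markers 3 were (PDGFRA, PDGFRB and THY1), and of 15 immune markers 4 (CD68, FCGR3A, AIF1 and HLA-DRA). PTPRC, CD3E, EPCAM, SOX10 and PECAM1 were detected on none. The summed immune markers lay between 632.6 and 697.4 with withanone and between 748.7 and 846.8 with DMSO, with CD68 lower by the brightest of its probes only (-0.71 ± 0.17, adjusted p = 0.0313, other probes -0.08 and 0.04). Their part in the results was not tested. Of 40 mesenchymal markers 23 were detected on all 6 arrays, among them VIM, SNAI2 and COL1A1. Another 14 were detected on none, among them FN1, PRRX1, RUNX1, COL1A2 and TAGLN.

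Many genes differed by small amounts between the withanone and DMSO arrays. Of 12975 genes, 1117 passed the threshold (8.61%), 604 of them higher (4.66%) and 513 lower (3.95%), and 48 of them, 18 higher and 30 lower, changed at least 2-fold. The median size of the change was 0.58 on the log2 scale among the higher genes and 0.64 among the lower genes. The 3 withanone arrays lay fully beyond the 3 DMSO arrays for all 1117, which also held for 4088 genes in all (31.5%). The count moved with single arrays. It was 538 without WN replicate 1, 260 without WN replicate 2 and 1225 without WN replicate 3, and 205, 410 and 277 without DMSO replicates 1, 2 and 3. Fitting all 18 arrays together gave 599. The plot of differences by level shows calls at every brightness, with 1.57% higher and 2.31% lower in the dimmest of 4 equal bins of genes and 7.58% higher and 5.95% lower in the brightest.

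**Figure D1:**
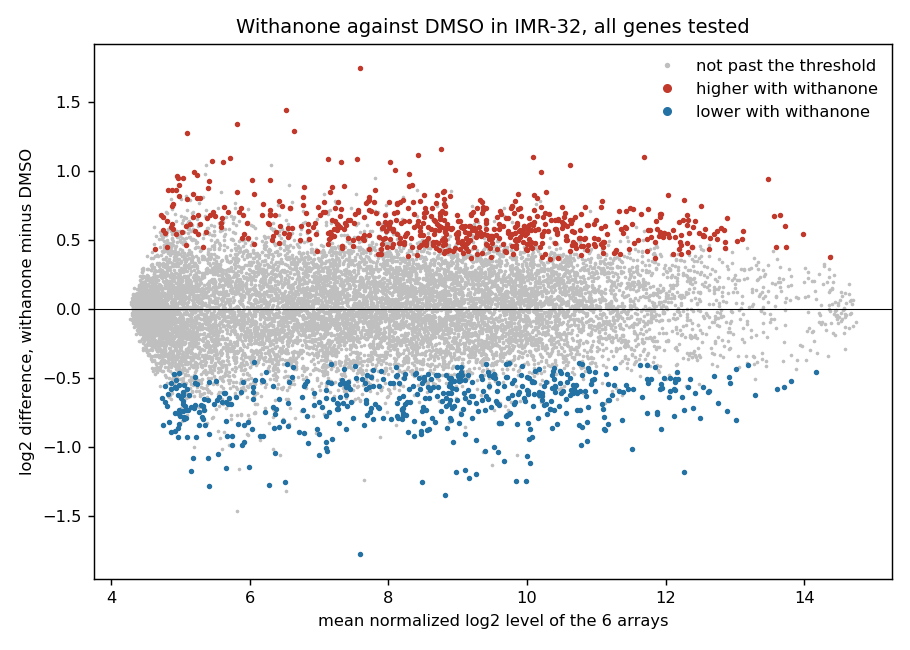
Log2 difference between withanone and DMSO means in IMR-32 (vertical axis) against the mean normalized log2 level of the 6 arrays (horizontal axis), with 1 point per gene. Red points are the 604 genes higher with withanone, blue points the 513 lower and grey points the genes not past the threshold. Most coloured points lie within 1 log2 unit of 0.

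Among the 15 largest rises, TTYH3, a calcium-activated chloride channel of the tweety family, had levels of 10.58, 10.67 and 10.67 with withanone against 9.46, 9.60 and 9.56 with DMSO (1.10 ± 0.14, 2.15-fold, adjusted p = 0.0102). The groups stood far apart and the call held without any 1 of the 6 arrays. ACVR2B, a receptor for activins, had 8.10, 7.87 and 7.56 with withanone against 6.81, 6.93 and 6.60 with DMSO (1.06 ± 0.17, adjusted p = 0.0112). STEEP1, a factor known to help the innate immune adaptor STING leave the endoplasmic reticulum, had 7.82, 7.88 and 7.33 with withanone against 6.71, 6.58 and 6.48 with DMSO (1.09 ± 0.19, adjusted p = 0.0129). For both genes the withanone arrays were all higher, and leaving out any 1 array kept the call.

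S1PR1, a receptor for the lipid sphingosine-1-phosphate, was at 6.12, 6.18 and 6.14 with withanone against 4.69, 5.09 and 5.47 with DMSO (1.06 ± 0.17, adjusted p = 0.0113), but was detected on 2 of 3 DMSO arrays and a second probe gave 0.11. RNF13, a ubiquitin ligase of endosomes, was higher by 1.11 ± 0.15 (adjusted p = 0.0102) by its brighter probe, whereas its other probe gave -0.26, so that the transcripts it stands for are uncertain. The cholesterol synthesis enzyme SC5D rose as well, with 8.65, 8.56 and 8.60 with withanone against 7.67, 7.36 and 7.76 with DMSO (1.01 ± 0.15, adjusted p = 0.0102). It was the only 1 of 18 tested genes of cholesterol synthesis past the threshold, and 3 of them were with the replicate number as a block.

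Of the genes with the largest rises, ZNF121, a zinc finger protein, led with 8.66, 8.52 and 8.21 with withanone against 6.40, 6.95 and 6.80 with DMSO (1.74 ± 0.33, 3.34-fold, adjusted p = 0.0162). The neuronal transcription factor NEUROD2 followed with 7.58, 7.65 and 6.51 with withanone against 5.82, 5.97 and 5.62 with DMSO (1.44 ± 0.28, adjusted p = 0.0168). Both lost their call without WN replicate 2, without DMSO replicate 1 and without DMSO replicate 3, and NEUROD2 also without WN replicate 1. UBXN7 (1.34 ± 0.29) and TAF5L (1.29 ± 0.28) rose by their brighter probes only, with -0.23 and -0.18 by a second probe. OR2A20P, an olfactory receptor pseudogene below detection on each DMSO array, was at least 1.53-fold higher (adjusted p = 0.0102), and OR2A42 of the same family, detected on 1 of 3 DMSO arrays, rose by 1.07 ± 0.25; such near-identical copies may share a probe, as may EIF3CL (1.16 ± 0.20) and EIF3C. For such a bound the dim group is given, array by array, its detection floor or the measured level if that is higher.

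**Figure D2:**
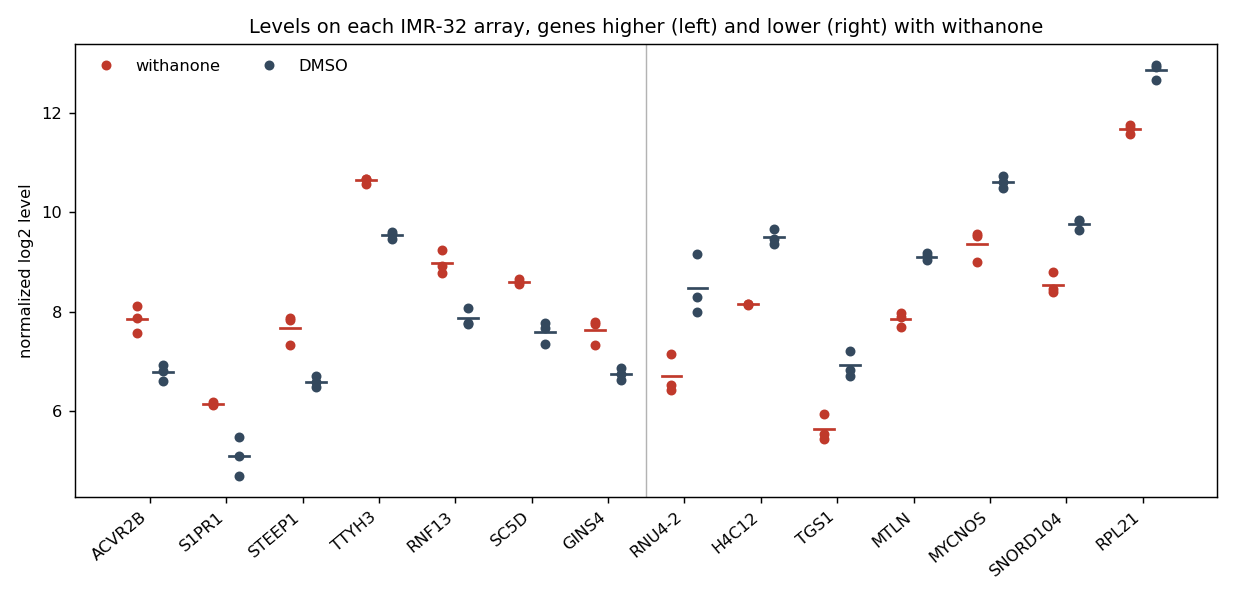
Normalized log2 levels of 14 genes on each IMR-32 array, withanone (red, left of each pair) and DMSO (dark, right of each pair), with a bar at the mean of 3 arrays. The 7 genes left of the line are higher with withanone and the 7 to the right are lower, and in each the 3 withanone points lie wholly on one side of the 3 DMSO points.

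Among the 15 largest falls stood short noncoding RNAs, histones and single genes of other kinds. RNU4-2, a copy of the U4 RNA of the spliceosome, had levels of 6.43, 6.52 and 7.15 with withanone against 8.29, 7.99 and 9.16 with DMSO (-1.78 ± 0.28, 3.43-fold lower, adjusted p = 0.0112). MTLN, a micropeptide of the inner mitochondrial membrane, had 7.96, 7.89 and 7.70 with withanone against 9.04, 9.11 and 9.17 with DMSO (-1.26 ± 0.11, adjusted p = 0.00412). TMEM160, a mitochondrial membrane protein, fell by 1.12 ± 0.10 (adjusted p = 0.00412), with 9.56, 9.54 and 9.34 with withanone against 10.61, 10.59 and 10.59 with DMSO. In all of these the withanone arrays were lower without overlap. TMEM160 was picked for its small p after the values were seen.

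MYCNOS, a transcript made antisense to MYCN, had 9.56, 9.53 and 9.00 with withanone against 10.49, 10.60 and 10.73 with DMSO (-1.24 ± 0.18, adjusted p = 0.0102). MYCN itself, near the top of the scale at 14.61, 14.75 and 14.75 with withanone against 14.62, 14.76 and 14.62 with DMSO, differed by 0.04 ± 0.11, and its sign turned with cyclic loess normalization. A second, dimmer MYCN probe gave 0.58, and the mean of the probes gave 0.31 (adjusted p = 0.0958). TGS1, the enzyme that gives small nuclear RNAs their trimethylated cap, was lower by 1.28 ± 0.18 (adjusted p = 0.0102) by its brighter probe, with 5.94, 5.54 and 5.43 with withanone against 7.21, 6.83 and 6.70 with DMSO, but its other probe gave -0.09. NME2, a nucleoside diphosphate kinase that shares sequence with NME1, was lower by 1.17 ± 0.16, against -0.24 to -0.33 by its 3 other probes. RBAK, a zinc finger repressor, was undetected on all withanone arrays and at least 1.81-fold lower (adjusted p = 0.0211), a call lost without WN replicate 1 or 2 or DMSO replicate 1 or 2.

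Of the 30 genes with the largest changes, 17 kept their call with each of the 6 arrays left out in turn. The others lost it without at least 1 array, 13 of them without DMSO replicate 1, 11 without DMSO replicate 3, 10 without WN replicate 1, 10 without WN replicate 2, 5 without DMSO replicate 2 and 1 without WN replicate 3. SNAR-A1 (-1.24 ± 0.29) and SNORD8, undetected with withanone and at least 1.47-fold lower (adjusted p = 0.0478), lost their calls without any 1 of at least 5 of the 6 arrays. Over all 97 named genes past the threshold, the array whose absence cost the most calls was DMSO replicate 1.

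Short noncoding RNAs, such as the U1, U2, U4, U5 and U6 small nuclear RNAs of the spliceosome, are mostly made without a poly(A) tail, and snoRNAs are excised from the introns of host genes. Of 16 tested genes in the list of such RNAs, 5 were lower (31.2%, against 3.95% of all genes) and none higher, with a median difference of -0.65, against 0.00 over all genes. RNU4-2, RNU5A-1 (-1.06 ± 0.23), RNU1-1 (-1.03 ± 0.23), RNU11 (-0.97 ± 0.25) and RPPH1, the RNA of ribonuclease P (-0.72 ± 0.13), passed. With the replicate number as a block 10 passed, and without WN replicate 1 or 2 or DMSO replicate 1 or 3 between 1 and 2 did. Grouped by the biotype given in RefSeq, a grouping made after the values were seen, 8 of 13 small nuclear RNAs (61.5%) and 13 of 141 snoRNAs (9.22%) were lower. None of either was higher. Among all genes spanning at most 10270 bases, which include all 141 snoRNAs, 7.99% were lower, so that the snoRNA share lay near that of short genes. SNORD104 gave the clearest difference, with 8.79, 8.39 and 8.45 with withanone against 9.84, 9.64 and 9.83 with DMSO (-1.22 ± 0.13, adjusted p = 0.00504). TERC, the RNA template of telomerase, was at 6.81, 6.46 and 6.49 with withanone against 7.67, 7.38 and 7.75 with DMSO (-1.01 ± 0.15, adjusted p = 0.0102). Copies of the spliceosomal RNAs are nearly identical, so that their probes may not tell them apart.

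Replication-dependent histone mRNAs end in a stem-loop in place of a poly(A) tail and are made in S phase. Of 27 tested members of the list, 8 were lower (29.6%, against 3.95% of all genes) and none higher, with a median of -0.34, and 3 of the others had a positive difference. The lower ones were 3 H2A genes, 3 H2B genes and 2 H4 genes. H2BC9 had levels of 8.53, 8.39 and 8.24 with withanone against 9.58, 9.65 and 9.49 with DMSO (-1.18 ± 0.13, adjusted p = 0.00624). H2BC4 had 5.20, 5.50 and 5.54 with withanone against 6.65, 6.58 and 6.43 with DMSO (-1.14 ± 0.14, adjusted p = 0.0102) and was detected on 2 of 3 withanone arrays. H2AC18 was lower by 0.96 ± 0.20, with -0.62 by its other probe. H4C12, outside the list but among the largest falls, had 8.13, 8.16 and 8.15 with withanone against 9.36, 9.46 and 9.66 with DMSO (-1.35 ± 0.14, adjusted p = 0.00504). H4C11 fell by 1.25 ± 0.20 likewise. H4C5, H2AC12 and H2BC6 were undetected on all withanone arrays, and at least 1.6-fold, 1.07-fold and 1.28-fold lower. Without DMSO replicate 1 only 2 members were called, and 5 without WN replicate 2. Members of a histone family differ little in sequence, and which copy a probe reads is uncertain.

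The promoters of H4C12, the histone gene with the largest fall, and of H2BC9 and H2BC4, the list members with the largest falls, are shown because replication-dependent histone genes are known for compact promoters with a TATA box and CCAAT boxes near the start. The sequences are RefSeq's of GRCh38.p14, chromosome 6, and run 5′ to 3′ on the strand of the gene over the 250 bases before its start: 27831561 to 27831810 (minus strand) for H4C12, 26251364 to 26251613 (plus strand) for H2BC9 and 26123927 to 26124176 (minus strand) for H2BC4. Capitals mark the letters TATAA or CCAAT on either strand.
H4C12: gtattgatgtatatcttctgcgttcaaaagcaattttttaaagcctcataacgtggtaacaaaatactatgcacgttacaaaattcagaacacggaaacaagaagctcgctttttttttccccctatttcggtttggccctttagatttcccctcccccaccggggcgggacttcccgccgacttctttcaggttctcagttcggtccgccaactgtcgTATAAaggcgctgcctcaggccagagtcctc
H2BC9: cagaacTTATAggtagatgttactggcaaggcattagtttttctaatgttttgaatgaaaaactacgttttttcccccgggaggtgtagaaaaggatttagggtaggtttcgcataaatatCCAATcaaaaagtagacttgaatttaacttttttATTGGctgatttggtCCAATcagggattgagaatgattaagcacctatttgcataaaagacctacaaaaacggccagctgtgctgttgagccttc
H2BC4: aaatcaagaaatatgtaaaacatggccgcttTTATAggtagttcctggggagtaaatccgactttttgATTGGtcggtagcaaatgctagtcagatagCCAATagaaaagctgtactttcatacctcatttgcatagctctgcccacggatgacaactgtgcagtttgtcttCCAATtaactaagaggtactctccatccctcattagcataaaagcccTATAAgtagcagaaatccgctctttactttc
H4C12 holds 1 TATAA and no CCAAT, H2BC9 holds 1 and 3, and H2BC4 holds 2 and 3. The TATAA match of H2BC9 and 1 of the 2 of H2BC4 are on the opposite strand. Both lie toward the end of the window away from the start, not near it. Over windows of 250 bases TATAA was found in 26 of 28 promoters of tested list members (92.9%) and CCAAT in 25 of 28 (89.3%). In the 15129 promoters of all genes tested the shares were 11.8% and 33.2%, and in all 35116 promoters 18.9% and 32%. These are counts of promoters and not of genes. Such matches describe letters and not sites in use.

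The respiratory chain and ATP synthase make ATP in the inner mitochondrial membrane. Of 69 tested nuclear genes of these complexes 22 were lower (31.9%, against 3.95% of all genes) and 3 higher, with a median of -0.36. Complex I, which takes electrons from NADH, had 10 lower and 1 higher of 32. Complex III had 2 lower and 1 higher of 8, and complex IV, the cytochrome c oxidase, had 5 lower of 10. ATP synthase had 5 lower of 15, and complex II, with 3 tested, had 1 higher. A positive difference was found for 18 of the 69 genes. In ATP synthase only 8 of 15 genes had a negative difference, so that its median does not describe all its subunits. Without a single array the number lower was 14, 8 and 15 (WN replicates 1, 2 and 3) and 4, 13 and 7 (DMSO replicates 1, 2 and 3).

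NDUFS7, a subunit of complex I that carries an iron-sulfur cluster, had levels of 10.49, 10.47 and 10.43 with withanone against 11.28, 11.34 and 11.23 with DMSO (-0.82 ± 0.10, adjusted p = 0.00893). ATP5F1E, the smallest subunit of the catalytic part of ATP synthase, had 10.80, 10.77 and 10.44 with withanone against 11.57, 11.45 and 11.59 with DMSO (-0.87 ± 0.14, adjusted p = 0.0113). The withanone arrays were lower without overlap for both, and both kept the call with any 1 array left out. UQCRB of complex III showed the largest difference of the list, with 9.07, 9.10 and 8.90 with withanone against 10.57, 9.64 and 9.86 with DMSO (-1.0 ± 0.24, adjusted p = 0.0308), but its 2 other probes gave -0.28 and 0.23. NDUFA3 (-0.76 ± 0.16), NDUFA11 (-0.75 ± 0.12) and ATP5MF (-0.75 ± 0.13, other probe -0.74) were lower too. In complex IV, COX7B (-0.69 ± 0.15) and COX5B (-0.68 ± 0.11) were lowest. UQCRC1, a core subunit of complex III, was higher by 0.72 ± 0.12 (adjusted p = 0.0121), NDUFV3 by 0.55 ± 0.14 (other probe -0.85) and SDHD, a membrane anchor of complex II, by 0.46 ± 0.12.

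**Figure D3:**
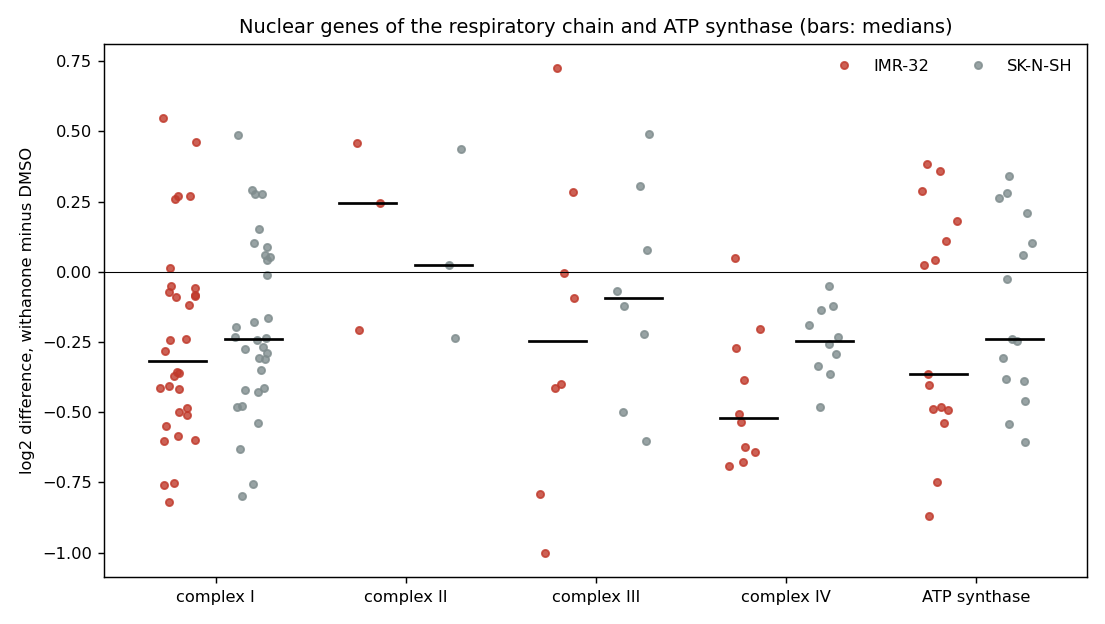
Log2 difference, withanone minus DMSO, of tested nuclear genes of the respiratory complexes and ATP synthase, in IMR-32 (red, left) and SK-N-SH (grey, right), with a bar at the median. In IMR-32 the medians are -0.32 for complex I, 0.24 for complex II, -0.25 for complex III, -0.52 for complex IV and -0.36 for ATP synthase. Of 15 ATP synthase genes 8 are negative in IMR-32, with values from -0.87 to 0.38.

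Cytosolic ribosomal proteins gave 11 lower (16.4%, against 3.95% of all genes) and none higher of 67, with a median of -0.07, so that most members lay near 0. RPL21 of the large subunit had 11.75, 11.70 and 11.57 with withanone against 12.97, 12.67 and 12.93 with DMSO (-1.18 ± 0.12, adjusted p = 0.00504). RPS21 (-0.88 ± 0.15), RPS28 (-0.87 ± 0.17) and RPL26 (-0.80 ± 0.13) of both subunits also fell, while RPL34 (-0.58 ± 0.15) did so by 1 of its 2 probes. Between 2 and 7 were lower with 1 array left out, lowest without DMSO replicate 1. Processed pseudogenes resemble several of these genes.

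Lower genes were short. The median gene span on the annotation was 29251 bases for the 604 higher genes, 9909 for the 513 lower genes and 28208 for all. In the shortest of 4 equal bins of genes (55 to 10270 bases) 3.49% were higher and 7.99% lower, and in the next 3 bins 5.43% and 3.18%, 5.80% and 1.94%, and 3.92% and 2.72%. The respiratory genes were lower in both classes, 14 of 36 in the shortest bin (38.9%, against 7.99% of all genes there) and 8 of 33 among the longer ones (24.2%, against 2.61%). Histones and short noncoding RNAs lie almost wholly in the shortest bin, with 25 of 27 and 16 of 16. The part of gene length, RNA quality or array brightness in these results was not tested.

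**Figure D4:**
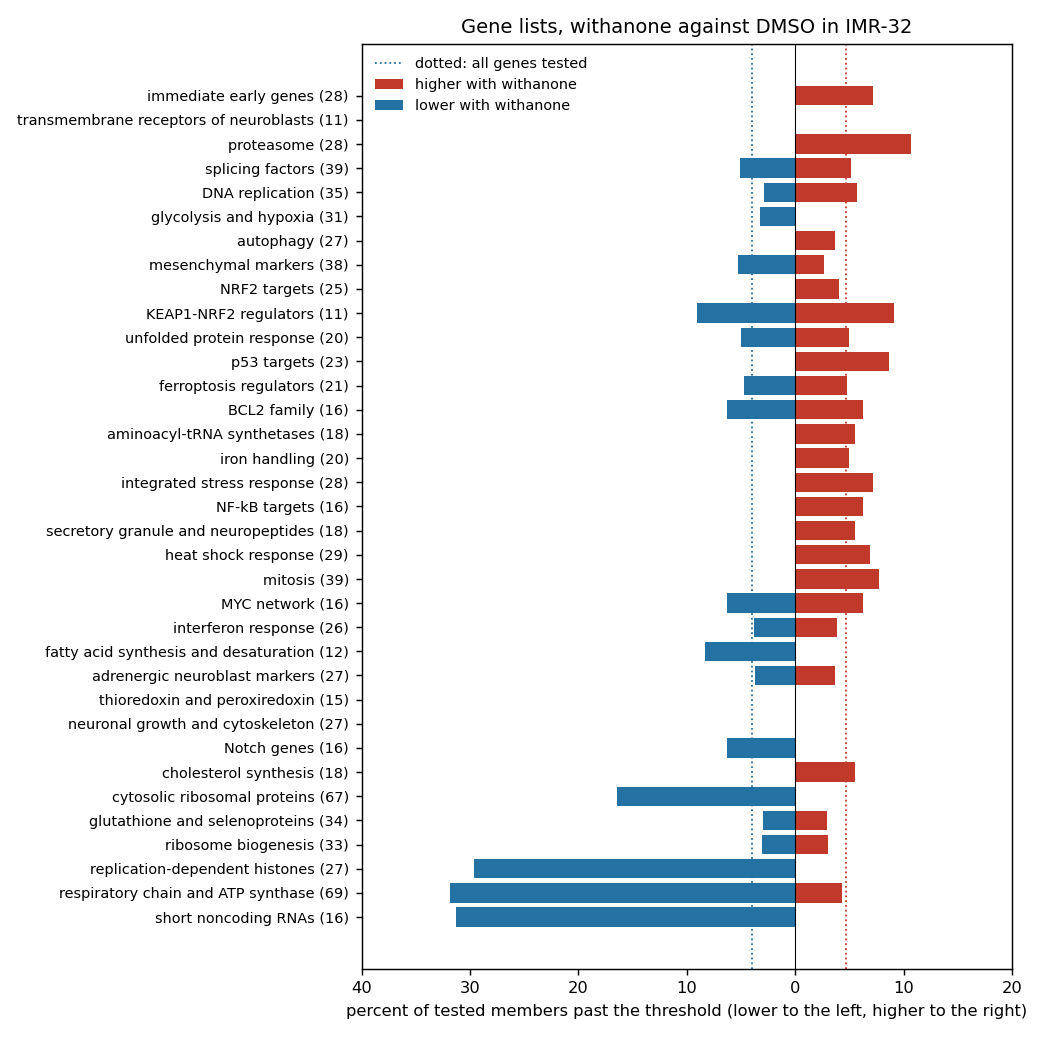
Percent of tested members past the threshold in each gene list with at least 10 tested genes (number in brackets), lower with withanone to the left and higher to the right; dotted lines mark the shares over all genes tested, 3.95% and 4.66%. Lists run from the highest to the lowest median difference, and the bars for short noncoding RNAs, respiratory genes and histones reach furthest to the left.

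In the stress lists the shares called lay near that of all genes, 8.61%: 4% of NRF2 targets, 6.9% of heat shock, 7.14% of integrated stress response, 10% of unfolded protein response and 10.7% of proteasome genes. Of 25 NRF2 targets 1 was higher and none lower (median 0.10; 1 higher and 1 lower with the replicate number as a block), namely the NADPH-forming malic enzyme ME1 (0.57 ± 0.12, adjusted p = 0.0205). HMOX1, the heme-degrading enzyme and a classic NRF2 target, was at 6.11, 6.66 and 6.17 with withanone against 6.31, 6.78 and 5.95 with DMSO, with overlapping groups (-0.04 ± 0.28, 95% interval -0.66 to 0.59). NQO1, a quinone reductase, was at 8.77, 9.29 and 8.22 with withanone against 8.67, 8.80 and 8.06 with DMSO (0.25 ± 0.27). KEAP1 and NFE2L2 differed by 0.25 and 0.26 and passed no threshold. Of 11 tested regulators of that pathway 1 was higher and 1 lower (18.2%, against 8.61% of all genes). GSK3B, a kinase that targets NRF2 for degradation, was higher (0.69 ± 0.11, adjusted p = 0.0112) and RBX1, a RING subunit of cullin ligases, lower (-0.57 ± 0.11, adjusted p = 0.0174). GSK3B kept its call with any 1 array left out, RBX1 lost it without WN replicate 2 or DMSO replicate 1 or 3, and ME1 lost it without any array but WN replicate 3.

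Of 29 heat shock genes 2 were higher, the chaperones HSPA8 and HSPD1. HSPA8 had 13.88, 13.88 and 13.95 with withanone against 13.09, 13.33 and 13.27 with DMSO (0.67 ± 0.11, adjusted p = 0.0128), and HSPD1 differed by 0.45 ± 0.11, with 0.57, 0.14 and 0.38 by its other probes. The inducible HSPA1A was undetected in both groups (0.13), and with cyclic loess normalization it was called at 0.59 (adjusted p = 0.0381). The probe of its near-identical paralog HSPA1B was well detected, with means of 11.14 with withanone and 11.25 with DMSO (-0.11 ± 0.13). Of 28 integrated stress response genes 2 were higher, CTH (0.61 ± 0.12, other probes 0.04 and 0.40) of cysteine synthesis and ASNS (0.45 ± 0.11), the asparagine synthetase, while DDIT3 (-0.39) passed no threshold. Of 20 unfolded protein response genes ATF6 was higher (0.55 ± 0.12) and SDF2L1 lower (-0.53 ± 0.10). The proteasome had 3 higher of 28, PSMD12 (0.70 ± 0.10, adjusted p = 0.0102), PSMC2 (0.52 ± 0.10) and PSMC1 (0.49 ± 0.11, other probe 0.22). PSMD12 kept its call with any 1 array left out and HSPA8 lost it without DMSO replicate 1 only, while the others here lost it without DMSO replicate 1, DMSO replicate 3 or WN replicate 2, and HSPD1 and ASNS without any 1 array.

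Ferroptosis regulators gave 1 higher and 1 lower of 21 (9.52%), a share near the 8.61% of all genes. ACSL4 had 7.29, 7.50 and 7.79 with withanone against 8.12, 8.24 and 8.59 with DMSO (-0.79 ± 0.19, adjusted p = 0.0334), with -0.13 by its other probe and a call lost when any 1 of WN replicates 1 and 2 and the DMSO arrays was left out. DHODH, which reduces mitochondrial ubiquinone, was higher by 0.61 ± 0.15 (adjusted p = 0.0361), but it was detected on 1 of 3 DMSO arrays, and without background correction it differed by 0.18 (adjusted p = 0.118). GPX4 was at 12.88, 12.92 and 12.54 with withanone against 12.74, 12.97 and 12.78 with DMSO (-0.05 ± 0.14, interval -0.37 to 0.27, other probe -0.28). SLC7A11, the cystine transporter, was undetected in both groups, and the transferrin receptor TFRC differed by 0.25. In iron handling 1 of 20 passed (3 with the block), PCBP2, an iron chaperone, at 0.68 ± 0.12, with 0.21, -0.34 and 0.61 by its other probes. Of glutathione and selenoprotein genes SEPHS2, which makes the selenium donor, was higher (0.74 ± 0.12, adjusted p = 0.0113) and GLRX2, a mitochondrial glutaredoxin, lower (-0.64 ± 0.14, other probe -0.90). SEPHS2 kept its call with any 1 array left out, PCBP2 lost it without DMSO replicate 1, and DHODH and GLRX2 lost it without WN replicate 2, DMSO replicate 1 or DMSO replicate 3.

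The shares called in the cell cycle and identity lists also lay near the 8.61% of all genes, with 8.57% of DNA replication, 7.69% of mitosis, 7.14% of immediate early genes, 7.41% of adrenergic and 7.89% of mesenchymal markers. Of 35 DNA replication genes GINS4, a subunit of the replicative helicase (0.88 ± 0.15, adjusted p = 0.0129), and POLE2 (0.42 ± 0.11) were higher and the licensing factor CDT1 lower (-0.56 ± 0.12). Of 39 mitosis genes 3 were higher, MAD2L1 (0.48 ± 0.11, other probe -0.37), CCNB2 (0.46 ± 0.12) and AURKA (0.45 ± 0.12, other probe 0.35). Of 28 immediate early genes 2 were higher, EGR1 (0.70 ± 0.12) and JUND (0.51 ± 0.11). Of 27 adrenergic markers TBX2 was higher (0.68 ± 0.14). SLC18A1 was called lower but was detected on no withanone array and 2 of 3 DMSO arrays, its other probe gave 0.11, and the call was lost with cyclic loess, without background correction, with the authors' log2 values, with all 18 arrays and with the mean of its probes. Of 38 mesenchymal markers the calcium-binding S100A6 (-0.77 ± 0.12) and the galectin LGALS1 (-0.68 ± 0.18) were lower, the DNA sensor IFI16 higher (0.54 ± 0.13), and VIM passed no threshold (0.32). The receptor NOTCH1 was lower by 0.73 ± 0.11 (adjusted p = 0.0109), the only 1 of 16 Notch genes. Of 16 BCL2 family genes 1 was higher and 1 lower (12.5%, against 8.61% of all genes), with a median of 0.07. The anti-apoptotic BCL2L1 was higher by 0.69 ± 0.13 (other probe 0.21) and its antagonist BAD lower by 0.56 ± 0.13 (other probes -0.26 and -0.14). None of 15 thioredoxin and peroxiredoxin genes and none of 27 neuronal growth and cytoskeleton genes passed. With the replicate number as a block 1 neuronal growth gene was higher and 1 lower, 2 Notch genes were lower, 4 immediate early genes were higher, and 3 mesenchymal markers were higher and 3 lower. GINS4, S100A6 and NOTCH1 kept their calls with any 1 array left out, EGR1 lost it without DMSO replicate 1, and each of the others that passed lost it without WN replicate 2 and without DMSO replicates 1 and 3.

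Withanone and withaferin A were compared directly in IMR-32, at the same dose and time, as 1 pair of compounds that differ in the positions of the epoxide and hydroxyl groups. Withanone arrays were dimmer than withaferin A arrays too, with highest signals of 19100.5 to 20824.1 against 34659.4 to 37328.5. Brightness and compound therefore cannot be told apart here either. Of 12975 genes 4124 differed between the compounds (31.8%). Of 25 NRF2 targets 20 were lower with withanone than with withaferin A and 1 was higher. HMOX1 differed by -6.10 on the log2 scale, withanone minus withaferin A (95% interval -6.73 to -5.48, adjusted p = 1.94e-06) and NQO1 by -3.01 (-3.61 to -2.41, adjusted p = 7.56e-05). EGR1 differed by -2.03 (-2.30 to -1.76) and TXNIP, an inhibitor of thioredoxin, by 2.16 (1.81 to 2.51). DNA replication genes were higher with withanone for 31 of 35 and lower for none, with GINS4 higher by 1.21 (0.87 to 1.54).

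Short noncoding RNAs also separated the compounds, with 13 of 16 lower and 1 higher with withanone than with withaferin A. RNU4-2 differed between them by -2.76 (-3.37 to -2.14, adjusted p = 0.000135). NDUFS7 did not pass between the compounds (-0.23, interval -0.45 to -0.02, adjusted p = 0.0938), nor did MYCNOS (-0.10, interval -0.51 to 0.31), SC5D (0.24, interval -0.09 to 0.57) or GPX4 (-0.07, interval -0.39 to 0.25). Each compound's own difference from DMSO rests on the same 3 DMSO arrays. Of the 25 NRF2 targets 1 was higher with withanone and 19 with withaferin A, where 8.61% and 21.3% of all genes were called, and their medians were 0.10 and 0.96. The medians of respiratory genes were -0.36 with withanone and -0.14 with withaferin A, those of short noncoding RNAs -0.65 and 0.99, and those of DNA replication genes 0.13 and -0.61. Listed histones had medians of -0.34 and 0.20, and of 27 tested 12 were higher and 6 lower with withaferin A. H2BC9 (-2.10), H2BC4 (-1.05), H4C12 (-0.99) and H4C11 (-0.97) were lower than DMSO with withaferin A too, whereas H2AC18 was higher (1.87). H2BC4, H4C12 and H4C11 did not pass between the compounds.

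**Figure D5:**
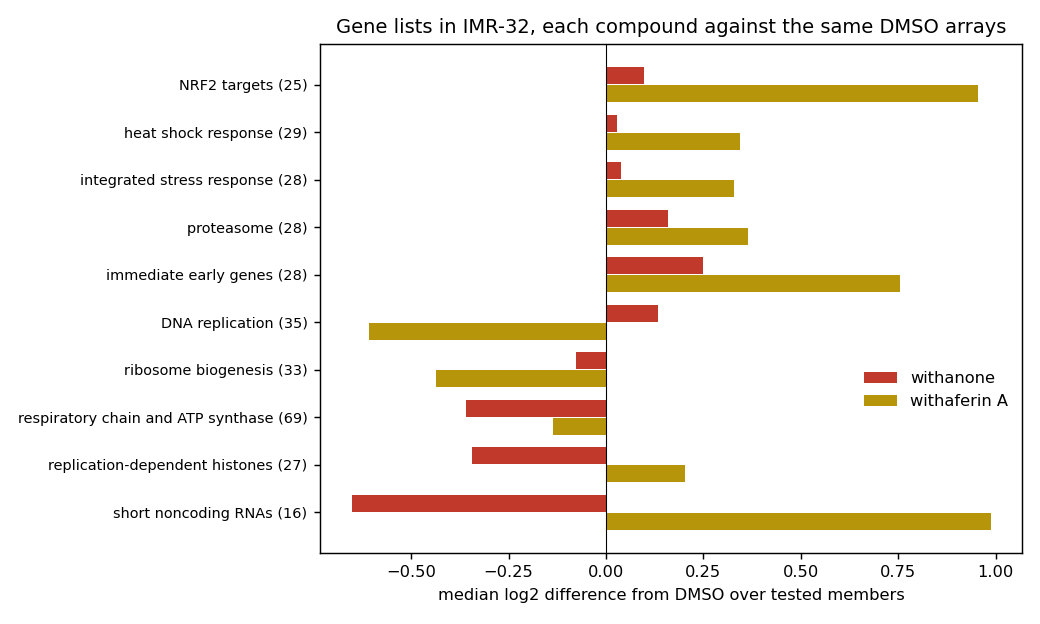
Median log2 difference from DMSO over the tested members (number in brackets) of 10 gene lists in IMR-32, for withanone (red, upper bar) and withaferin A (yellow, lower bar), both set against the same 3 DMSO arrays. The bars point in opposite directions for DNA replication, histones and short noncoding RNAs, and the withaferin A bar for NRF2 targets reaches 0.96 against 0.10 for withanone. Bars are medians, and single histones such as H2BC9 and H2BC4 were lower with both compounds.

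In 1 fit of all 18 arrays, 599 genes (4.62%) differed between withanone and DMSO in IMR-32 and 242 genes (1.87%) in SK-N-SH. Dose and time were the same in both lines. The difference in effect between the lines passed the adjusted threshold for 0 genes, and 478 genes (3.68%) had an unadjusted p under 0.05 in limma, so that the counts alone do not show that the lines differ. Genes higher with withanone in IMR-32 had a median difference of 0.34 in SK-N-SH, and genes lower had -0.43. MTLN differed by -0.85 in SK-N-SH against DMSO (adjusted p = 0.0301), SNORD104 by -1.07 (adjusted p = 0.0126), RPL21 by -1.04 (adjusted p = 0.0151), NDUFS7 by -0.76 (adjusted p = 0.0126) and RNF13 by 0.79 (adjusted p = 0.042). The withanone arrays of SK-N-SH were dimmer too, so that these values are no check on brightness. MYCNOS, NEUROD2 and RNU4-2 were not set against SK-N-SH values, since in SK-N-SH MYCNOS and NEUROD2 were detected on 0 of 6 arrays and RNU4-2 on 2 of 6. The list of respiratory genes had a median of -0.23 in SK-N-SH, with 4 lower and none higher. Listed histones had a median of -0.06 there, with none past the threshold. Short noncoding RNAs had -0.23, with 1 higher and none lower. H4C12 differed by -0.92 in SK-N-SH (adjusted p = 0.042), whereas H2BC4 (-0.15), H4C11 (-0.21) and CD68 (0.40) passed no threshold there.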

How the data were processed

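The arrays were Illumina HumanHT-12 v4 beadchips, 3 in each of 6 groups. The deposited table holds, per the file headers, a signal and a detection p-value for each of 47224 probes and array; the signal is a linear intensity, deposited without normalization between arrays. The deposited series matrix holds log2 values, which the authors quantile-normalized with limma per the submitters' processing notes; how it was scaled or centred beyond that is unknown, and its median is 6.87. Here 47222 probes (2 with missing values left out) went through neqc (offset 16, quantile, log2) of the R 4.3.3 package limma 3.58.1. On the withanone arrays detection p-values departed from the signals (66.5% to 68.0% of probes within 0.02 of a running median over 101 probes, at least 99.99% on the others) and were rederived from each array's own signal, a choice made after seeing the data. Genes whose probe was off on an IMR-32 withanone array were called in 8.16% and the others in 8.79%.

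A probe was kept with detection p under 0.01 on at least 3 of 18 arrays (23320 probes), and a gene was read from its brightest kept probe (12975 genes, 3703 with several). Symbols come from the platform annotation, updated through Entrez identifiers for 30068 of 30115 listed probes; 30107 had 1 symbol, 8 several and 17107 none here. The 9 IMR-32 arrays were fitted with limma (lmFit, eBayes, 6 residual degrees of freedom), and the lines were compared over all 18 arrays. The number of arrays limits the precision. Replicate numbers may pair the arrays, although the labels do not say so. Same-numbered withanone and DMSO arrays deviated from their group means together (r = 0.163, 0.172 and 0.341), and unlike-numbered ones gave r from -0.238 to 0.102. Against withaferin A the same-numbered values were 0.0656, 0.155 and 0.276. WN replicate 1 went more with WA replicate 2 (0.108) than with WA replicate 1. Deviations within a group cancel out, so that these r values depend on each other and leave the pairing uncertain. A fit with the replicate number as a block was therefore an alternative beside those of normalization, background, probe filter, probe choice and single arrays left out. Named were up to 15 genes higher and 15 lower with the largest changes past the threshold (arrays apart, detected on all 3 of a group), up to 4 called members of a list, and a fixed set including HMOX1, GPX4, ACSL4 and MYCN; members described beyond these (such as TERC, HSPA1B, COX5B, TMEM160, TXNIP and other respiratory genes) were added after their values were seen. The comparison, the 40 lists (905 tested genes) and the rules were chosen with earlier results of these data known. The fitting was tested on simulated data. Figures were drawn with matplotlib 3.10.9.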

Additional observations from a re-analysis of the deposited data

How the results depend on the processing

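The count of 1117 genes between withanone and DMSO in IMR-32 was 599 with all 18 arrays in one fit, 1691 without background correction and 1694 with the authors' log2 values, and lay between 205 and 1225 with single arrays left out. With the replicate block it was 1586, and the other alternatives gave 846 to 1448. The count of 0 genes for the difference between lines became 1 with cyclic loess normalization and lay between 0 and 2 with single arrays left out, and was 0 under the replicate block. The count of 4124 genes between withanone and withaferin A lay between 3907 and 4657 over other settings and between 2920 and 3946 with single arrays left out. Of 116 named genes 97 passed the threshold, 28 of them under every alternative; fitting all 18 arrays together cost 38 of these calls, among them those of NOTCH1, EGR1, ME1 and ACSL4. Signs turned for 5 genes, none of which passed: HMOX1, which gave 0.08 with cyclic loess and between -0.23 and 0.18 with single arrays left out (0.07 without WN replicate 1, 0.04 without WN replicate 3); GPX4, between -0.12 and 0.07 with single arrays left out (0.02 without DMSO replicate 2); SLC7A11, 0.17 with cyclic loess and between -0.21 and 0.02 with single arrays left out; MYCN, -0.13 with cyclic loess; and MBP, 0.13 with cyclic loess and between -0.21 and 0.05 with single arrays left out. The cause was not tested. Probes near background limit what can be read of SLC7A11, HSPA1A and MBP.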
